A study of Mus musculus with 84 samples.

Results

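Hindbrain GLASTneg astrocytes were compared between the peak of experimental autoimmune encephalomyelitis (EAE), a mouse model of multiple sclerosis, and unimmunized controls. These libraries were chosen by their labels alone, as those sorted on the surface protein ACSA-2 (ATP1B2) and without surface GLAST (SLC1A3) from hindbrain at E4 or C, and they numbered 11 of the 84 samples of the series and 11 of the 66 of its EAE experiment. The E4 group comprised 6 libraries and the C group 5. Hindbrain here means cerebellum and brain stem, and a library could hold the pooled RNA of 2 mice at most.

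All mice of this comparison were C57BL/6J and no engineered allele is named. E4 mice were females immunized at 10 weeks of age with a myelin oligodendrocyte glycoprotein (MOG) peptide in complete Freund's adjuvant, given pertussis toxin on that day and again a day later, and killed at score 4, when both hind legs were paralysed. C mice were not immunized, so disease, adjuvant and toxin cannot be told apart. Cells positive for CD11B or CD45, which mark myeloid cells and leukocytes, were gated out, so the gate kept cells with ACSA-2 on their surface at the time of the sort. The titles give each library of a group a number of its own, or a pair of numbers, without stating that it marks an animal. The p-values rest on a spread between libraries within groups, estimated from all 66 libraries of the EAE experiment, in 12 groups. That spread may in part be technical, and it is not that of the E4 and C libraries of this comparison alone.

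Astrocytes are glia that take up transmitters, buffer ions and contact blood vessels, and they react to inflammation. Interferons bound by surface receptors activate transcription factors, among them STAT2 and IRF9, that switch on interferon-stimulated genes through a promoter element called the ISRE. Interferon gamma also acts through IRF1 and raises the machinery that loads peptides onto major histocompatibility complex (MHC) molecules, through which a cell shows antigens to T cells. Reactive astrocytes are known for GFAP, an intermediate filament, and for SERPINA3N, a secreted protease inhibitor.

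Each library held between 1554784 and 3507580 counts, and 12392 to 14671 genes had more than 3 counts. That floor of 3 counts corresponded to between 0.856 and 2.00 CPM, that is counts scaled by the TMM method to a common library size of 1e6 and reflects counting error alone, as reads lacked molecular identifiers and may repeat a molecule. The labels give each library a sheet number, 28 to 46 in E4 and 32 to 51 in C, and it entered an alternative fit as a covariate. Mitochondrial genes took 8.16% to 13.4% of counts. The first principal component held 54.4% of the variance and the second 7.56%. Along the first, the C libraries lay at -39.6 to -32.4 and the E4 libraries at 22.8 to 43.7. E4 replicate 1 stood apart from the other E4 libraries, at 43.7 on the first and 30.6 on the second component, where the others were at 30.2 or below and at -1.81 or below, so counts that rest on it are also given without it.

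The sort was visible in the RNA. Slc1a3, which encodes GLAST, was at 1137 to 1771 CPM in the C libraries (median 1331) and at 1186 to 1764 CPM at E4 (median 1368), so its message was present in cells without surface GLAST. In C it was lower than in hindbrain GLASTpos astrocytes, which averaged 7168 ± 1504 CPM (SD, n = 5), by 2.38 ± 0.28 (SE) on the log2 scale (adjusted p = 7.9e-10, quasi-likelihood test of edgeR), so the label held. All 8 of 8 genes of a list of Bergmann glia markers, the cerebellar astrocytes rich in GLAST, were called lower in GLASTneg than in GLASTpos controls, against 3.4% of all genes. Of 22 astrocyte markers 7 were called higher in the GLASTneg controls, against 7.06% of all genes, and 2 lower. Atp1b2, which encodes ACSA-2, ranged from 5703 to 8576 CPM in C and from 7153 to 9241 CPM at E4.

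Astrocyte identity genes did not pass the test at peak disease. Of 22 markers tested 0 were called, 1 of 22 had an unadjusted p under 0.05, and DESeq2 called 0. Their log2 fold changes ran from -0.72 to 0.42 with a median of -0.01, and their summed level was 54864 to 68141 CPM in C and 55778 to 64680 CPM at E4. Slc1a2, the main glutamate transporter GLT-1, was at 5922, 7634, 6975, 5791 and 6436 CPM in C and at 5966 to 8121 CPM at E4 (median 7209), with a log2 fold change of 0.12 ± 0.26. Aqp4, the water channel of astrocyte endfeet, had a log2 fold change of -0.06 ± 0.31 and Fgfr3, a growth factor receptor of astrocytes, one of 0.14 ± 0.28. Gja1, which encodes the gap junction protein connexin 43, was at 2433, 1821, 2244, 1750.0 and 2147 CPM in C and at 1191 to 1866 CPM at E4 (-0.38 ± 0.38). The ranges of these genes overlapped between the groups. The largest negative value was that of Btbd17, at -0.72 ± 0.27 (adjusted p = 0.46). Aldh1l1, a folate enzyme used as a pan-astrocyte marker, was above all C libraries in all E4 libraries, at 91.2 to 141 CPM against 71.4 to 87.9 CPM, but was not called (0.42 ± 0.31, adjusted p = 0.80).

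Against that background 170 of 23324 genes (0.729%) were called differentially expressed, with an adjusted p under 0.05 together with a change of more than 1 in either direction on the log2 scale. Of these, 165 were higher at E4, which is 0.707% of the genes tested, and 5 were lower, which is 0.0214%, and 2059 genes (8.83%) had an unadjusted p under 0.05. In 153 of the 165 every E4 library was above every C library, a pattern that 423 genes showed in all, or 1.81% of those tested. Their median log2 fold change was 4.00, or 3.28 when the 22 genes without a count in any C library were set to their lower bound, and 102 of the 165 were above 3. The lists of interferon-stimulated, MHC class I and MHC class II genes together held 56 of the 165 genes (33.9%), out of 73 tested. Genes of any list, out of 537, made up 90 (54.5%). Without E4 replicate 1, 145 genes were called in all and 35 of the interferon list.

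**Figure D1:**
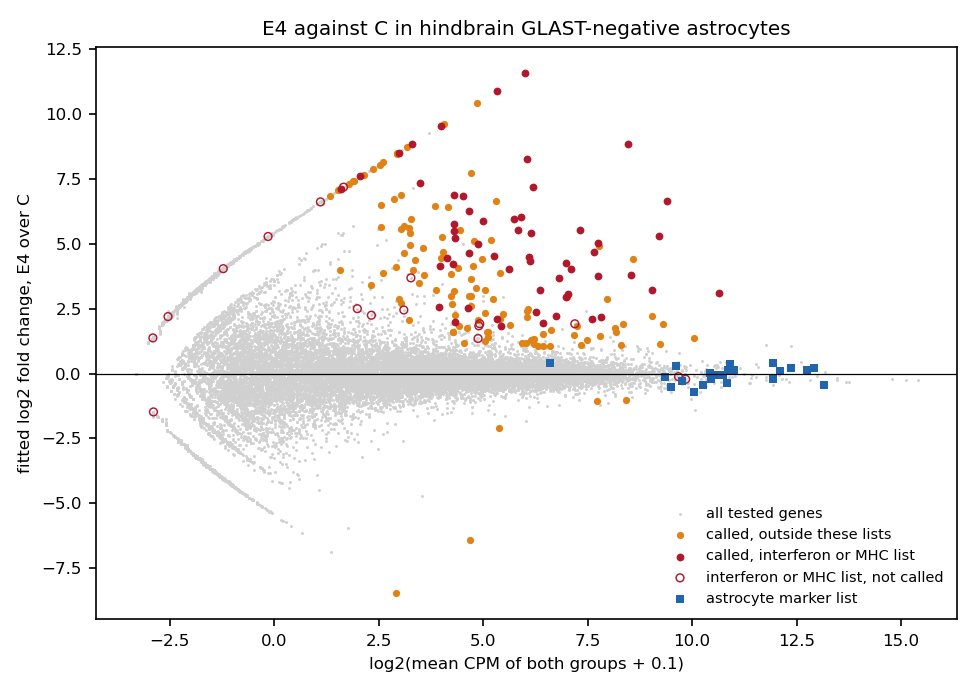
Fitted log2 fold change of E4 over C (vertical) against the log2 mean level in CPM (horizontal) for 23324 genes in hindbrain GLASTneg astrocytes. Red points are called genes of the interferon and MHC lists, open circles members not called, orange points other called genes and blue squares astrocyte markers. Called genes lie almost all above 0, with 165 higher and 5 lower, and the astrocyte markers lie near 0 at the right.

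The interferon-stimulated genes rose as a group. Of 40 tested, 36 were called higher against 0.707% of all genes, and 0 were called lower. All 40 had E4 above C in every library, against 1.81% of all genes. Their median log2 fold change was 4.65, or 4.41 with the 5 genes at 0 in C taken at their bound, while the median over all tested genes was 0.00. Summed over the list, the level was 360, 330, 459, 381 and 372 CPM in the C libraries and 5753 to 9623 CPM at E4 (median 7738). The 4 members not called were Oas1a, Ifih1, Ddx58 and Mx1, a sensor-synthase, a pair of RNA helicases that sense viral RNA and an antiviral GTPase. Ifih1 had a log2 fold change of 1.92 (adjusted p = 0.054) and Ddx58 one of 1.84 (adjusted p = 0.094).

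The factors that carry interferon signals to the nucleus were among them. Irf9, the DNA-binding partner of STAT2, was at 15.7, 22.1, 30.0, 32.9 and 39.3 CPM in C and at 194 to 291 CPM at E4 (median 228). The groups did not overlap, and the log2 fold change was 3.06 ± 0.33 (adjusted p = 2.1e-10). From the lists, Stat2 averaged 15.7 ± 2.35 CPM in C and 147 ± 31.7 CPM at E4 (3.23 ± 0.40, adjusted p = 1.9e-08). Irf1, an interferon gamma-responsive factor, went from 29.2 ± 6.74 to 397 ± 90.2 CPM (3.76 ± 0.49, adjusted p = 7.7e-08). Irf7, which amplifies type I interferon, went from 0.945 ± 0.759 to 39.0 ± 13.2 CPM (5.22 ± 0.83, adjusted p = 1.2e-05). These SDs are over 5 C and 6 E4 libraries, and Stat2, Irf1 and Irf7 were chosen for the text after their values were seen. Ifng itself, which encodes interferon gamma, had 0 counts in C and 0 to 2.35 CPM at E4.

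The highest mean level of the list at E4 was that of Igtp, a GTPase of the immunity-related family, which acts on vacuoles of intracellular microbes. Igtp was at 12.7, 10.6, 9.99, 17.7 and 15.7 CPM in C and at 873 to 1596 CPM at E4 (median 1396). Every E4 library was far above every C library, and the log2 fold change was 6.63 ± 0.70 (adjusted p = 2.1e-10). Iigp1, of the same family, was at 1.27, 0, 2.66, 1.73 and 2.25 CPM in C and at 396 to 843 CPM at E4 (median 747), a log2 fold change of 8.82 ± 0.91 (adjusted p = 1.3e-10). Its lowest E4 value came from replicate 2, which is also the E4 library with the lowest sum over the list. Ifi47 had no count in any C library and was at 61 to 97 CPM at E4 (median 85.6), at least 54.2-fold above the floor of 1.48 CPM (adjusted p = 7.5e-09). Igtp shares its strand and part of its locus with Irgm2 and Ifi47 lies with Olfr56, so counts from the shared parts are uncertain.

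Among the guanylate-binding proteins, a related family of antimicrobial GTPases, Gbp6 was at 0 in C and at 7.13 to 288 CPM at E4 (median 121), at least 87-fold higher (adjusted p = 0.0083), and replicate 6 held the lowest value. Gbp4 was at 0 in C and at 7.60 to 31.1 CPM at E4, at least 13.1-fold higher (adjusted p = 0.0024). Both have near-identical relatives, and their values are uncertain to the extent that reads match several copies. Bst2, which tethers budding virions at the membrane, was at 32.7, 19.3, 30.0, 34.3 and 31.5 CPM in C and at 863 to 1904 CPM at E4 (median 1008). It did not overlap and rose by 5.29 ± 0.58 on the log2 scale (adjusted p = 4.8e-10), with replicate 1 the highest.

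Promoter sequences are shown for genes of this group because the ISRE can be read in them. Of the 165 genes called higher, 118 were matched by symbol to RefSeq promoters of GRCm38.p6, each from 250 bases before to 50 bases after a start site. The core TTTCNNTTT was searched on both strands. It was present in 45 of 142 promoters (31.7%) of genes called higher, in 23 of 33 (69.7%) of the interferon list, in 22.3% of genes called higher outside that list, in 8.33% of astrocyte marker promoters and in 8.58% of the promoters of all tested genes. For the STAT site TTCNNNGAA the shares were 16.2% for genes called higher and 7.15% for tested genes, and for the glucocorticoid receptor pattern ACANNNTGT they were 9.15% and 4.87%. A match describes letters in this window and is not a measured binding site. The windows below read 5′ to 3′ on the strand of the gene, capitals mark the core on either strand, and the bracket gives strand and GRCm38.p6 position.
Igtp (chr11:58199463-58199555, plus strand): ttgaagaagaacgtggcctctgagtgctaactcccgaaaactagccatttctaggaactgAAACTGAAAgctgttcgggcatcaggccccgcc
Ifi47 (chr11:49076345-49076443, plus strand): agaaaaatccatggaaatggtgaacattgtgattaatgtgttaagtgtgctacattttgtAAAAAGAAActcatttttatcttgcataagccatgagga
Bst2 (chr8:71537557-71537661, minus strand): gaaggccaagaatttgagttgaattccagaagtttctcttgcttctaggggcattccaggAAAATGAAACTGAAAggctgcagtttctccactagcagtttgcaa
Cxcl10 (chr5:92349063-92349139, minus strand): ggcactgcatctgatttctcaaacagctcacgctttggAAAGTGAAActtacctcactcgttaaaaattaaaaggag
B2m (chr2:122147489-122147587, plus strand): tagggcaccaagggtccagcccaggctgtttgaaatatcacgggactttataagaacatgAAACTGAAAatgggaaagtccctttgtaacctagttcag
Cd274 (chr19:29367203-29367301, plus strand): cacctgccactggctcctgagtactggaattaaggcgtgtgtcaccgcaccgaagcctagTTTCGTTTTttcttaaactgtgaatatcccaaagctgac

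In these windows the core began 33 bases before the start site of Igtp, 182 before that of Ifi47, 129 and 123 before that of Bst2, 212 before that of Cxcl10, 138 before that of B2m and 175 before that of Cd274. Igtp, B2m and Bst2 carry the same run AAACTGAAA, and in Bst2 the pair of cores overlaps. Of the 50 genes named here that were called, 38 had a promoter that was searched, and 8 held the core, the others being Mobp and Sgk1.

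Most genes of the MHC class I presentation list were called higher. Of 22 tested, 15 were, against 0.707% of all genes, and 18 did not overlap, against 1.81%. The median log2 fold change of the list was 2.77 (2.22 with the 3 genes at 0 in C taken at their bound). Psmb8, a catalytic subunit of the immunoproteasome, was at 1.27, 0.920, 5.99, 1.04 and 0 CPM in C and at 51.2 to 143 CPM at E4 (median 110), a log2 fold change of 5.96 ± 0.77 (adjusted p = 6.9e-08). Tap1, a subunit of the peptide pump of the endoplasmic reticulum, was at 12.3, 7.82, 6.66, 10.7 and 27.0 CPM in C and at 272 to 497 CPM at E4 (median 437). Its log2 fold change was 5.02 ± 0.52 (adjusted p = 1.5e-10), and its reads cannot be told from those of Psmb9 on the other strand where the genes overlap if counting did not use strand. The groups were far apart for both genes. H2-K1, a classical heavy chain, was at 372, 362, 372, 287 and 296 CPM in C and at 2249.6 to 3925 CPM at E4 (median 2647). It rose by 3.09 ± 0.34 (adjusted p = 8.1e-10), and H2-D1, the other classical heavy chain, by 3.79 ± 0.43 (adjusted p = 9.9e-10), from a mean of 50.1 to 692 CPM. B2m, the light chain shared by all class I molecules, was at 94.3, 87.9, 109, 111 and 107 CPM in C and at 636 to 1588 CPM at E4 (median 880), a log2 fold change of 3.22 ± 0.37 (adjusted p = 1.2e-09).

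The chaperones Calr and Pdia3 of the same pathway were measured at -0.12 and -0.22 on the log2 scale and were not called. Heavy chains of class I are near-identical in sequence, so their separate counts are uncertain. Nlrc5, the transactivator of class I genes, averaged 0.315 CPM in C, from 3 counts in all, and 38.7 ± 8.99 CPM at E4, and was called (adjusted p = 1.6e-08). It too was chosen after its values were seen.

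Class II genes present to CD4 T cells and are typical of myeloid and B cells. Of 11 tested, 5 were called higher, against 0.707% of all genes. The median log2 fold change of the 11 was 3.68 (2.50 at the bound for the 5 at 0 in C). H2-Aa had no count in C and was at 17.8 to 65.8 CPM at E4 (median 22.7), at least 21.4-fold higher (adjusted p = 5.4e-05). H2-Ab1, its partner chain, was at 0.850, 0, 0, 1.73 and 1.12 CPM in C and at 15.5 to 98.1 CPM at E4 (median 30.7), a log2 fold change of 5.48 ± 1.00 (adjusted p = 0.00025). These genes were absent or nearly so in every C library and present in every E4 library. Cd74, the invariant chain, was at 0 in C and at 6.85 to 44.7 CPM at E4, at least 10.5-fold higher (adjusted p = 0.0088). H2-Eb1 was at 0 to 3.81 CPM in C and 10.3 to 112 CPM at E4 (4.44 ± 0.99, adjusted p = 0.0066). For H2-Aa, H2-Ab1, H2-Eb1 and Cd74 the highest value was that of E4 replicate 1, and without that library the count of called class II genes was 3. Ciita, the class II transactivator, had no count in C and 0 to 3.12 CPM at E4 and was not called.

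Markers of myeloid cells moved with these genes. The summed level of 12 myeloid markers was 12.9 to 51.9 CPM in C and 103 to 441 CPM at E4, with replicate 1 the highest. Of the 12, 2 were called higher, Lyz2 and C1qa, against 0.707% of all genes. The Lyz2 call was lost without C replicate 1, 4 or 5 and that of C1qa without C replicate 5. Cd14, Plac8 and Ms4a7 had no count in any C library. Itgam, which encodes the gated CD11B, was at 1.12 to 5.19 CPM in C and 4.00 to 14 CPM at E4, and Ptprc, which encodes CD45, at 0 to 5.95 and 5.79 to 58.8 CPM. Markers of T and NK cells summed to 36.5 to 61.3 CPM in C and 60.2 to 208 CPM at E4, with 7 of 14 at 0 in C. Of the 14, 1 was called higher, against 0.707% of all genes. That gene, Trbc2, was not called without E4 replicate 1 or without any one of the C libraries. Resident microglia markers summed to 132 to 181 CPM in C and 143 to 265 CPM at E4, with 0 of 10 called, 2 at an unadjusted p under 0.05 and 0 called by DESeq2. Most of that sum was Sall1 in most libraries, at 97.2 to 133 CPM in C and 87.6 to 159 CPM at E4, so it says little of the other members. Of the 10, 9 had a log2 fold change above 0, among them Csf1r, at 2.55 to 21.6 CPM in C and 14.3 to 58.2 CPM at E4. The myeloid, T cell and microglia sums stand beside the class II values and beside those of the interferon, chemokine and complement genes. Over E4 replicates 1 to 6 the myeloid sums were 441, 310, 190, 252, 103 and 116 CPM. In that order the class II sums were 630, 309, 222, 210, 112 and 157 CPM. The interferon sums were 9623, 5753, 8325, 7548, 7748 and 7728 CPM. The chemokine sums were 1012, 993, 998, 990, 1267 and 1083 CPM. Complement sums were 4548, 3085, 3093, 2882, 3343 and 2525 CPM. The part of such cells in any of these values was not tested. In bulk libraries, more cells of a type and more RNA per cell cannot be told apart.

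Cd274, which encodes the checkpoint ligand PD-L1, was at 0.850, 3.68, 0.666, 0.693 and 1.69 CPM in C and at 18.4 to 92.4 CPM at E4 (median 48.9). The groups did not overlap, and the log2 fold change was 5.09 ± 0.86 (adjusted p = 4.4e-05).

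Of 25 chemokines and cytokines 4 were called higher (median 2.52, 1.31 at the bound for 8 at 0 in C), against 0.707% of all genes. On leaving out single libraries the count was 1 to 5, with 1 without C replicate 2 or 5 and 2 without C replicate 1 or 4. Cxcl10, a ligand that draws in CXCR3-bearing T cells, had no count in C and was at 41 to 76.9 CPM at E4 (median 59.1), at least 39.0-fold higher (adjusted p = 3e-05). Cxcl9, another CXCR3 ligand, was at 0 in all but 1 C library, which held 1.39 CPM, and at 12 to 28.8 CPM at E4 (5.6 ± 1.34, adjusted p = 0.015). Neither ligand overlapped between the groups. Ccl2, which attracts monocytes, was at 0 in C and at 3.53 to 43.6 CPM at E4, at least 12.1-fold higher (adjusted p = 0.015). Ccl5, which is also made by T cells, was at 0 in C and at 2.23 to 27.0 CPM at E4, at least 8.11-fold higher (adjusted p = 0.016). Ccl2 and Ccl5 lost the call without C replicate 1, 2, 4 or 5, and Cxcl9 without C replicate 1, 2, 3 or 5.

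Complement genes were called in 7 of 18 tested (median 2.50, 1.44 at the bound for 4 at 0 in C), against 0.707% of all genes, and in 4 without C replicate 2. C4b, a component of the classical pathway, had the smallest adjusted p of the named genes. Its level was 39.1, 22.5, 51.3, 26.3 and 32.6 CPM in C and 580 to 1075 CPM at E4 (median 672), a log2 fold change of 4.43 ± 0.43 (adjusted p = 1.6e-11). C4a is a near-identical copy and was called as well, so the separate counts of C4a and C4b are uncertain. Serping1, the inhibitor of C1, was at 0, 1.38, 0, 1.04 and 1.12 CPM in C and at 54.4 to 97.9 CPM at E4 (median 86), a log2 fold change of 6.65 ± 0.91 (adjusted p = 2.8e-07). C1ra, a protease of the C1 complex, was at 0 in C and 5.20 to 21.1 CPM at E4, at least 10.2-fold higher (adjusted p = 0.0016). C1qb, a C1q chain that microglia and macrophages make, overlapped between the groups, at 0.460 to 8.07 CPM in C and 7.13 to 83.4 CPM at E4 (2.98 ± 0.67, adjusted p = 0.0075). Its highest value was again that of E4 replicate 1, without which 5 complement genes were called.

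**Figure D2:**
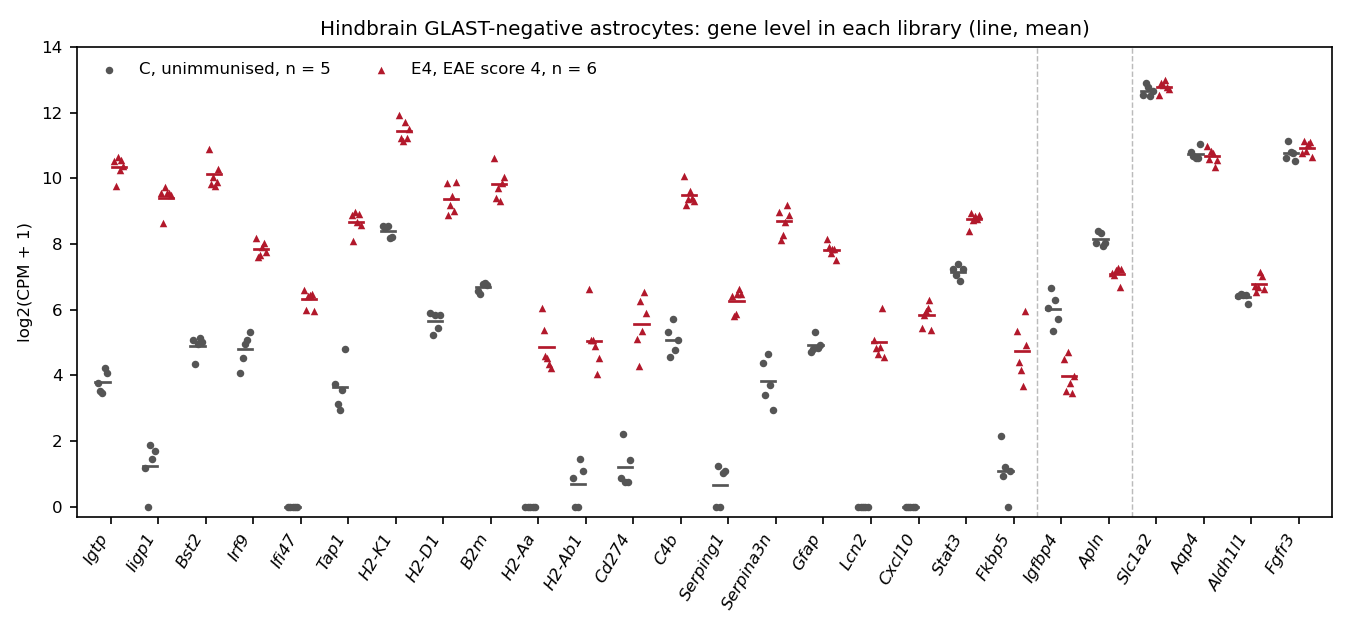
Level of 26 genes, as log2(CPM + 1), in each of the 5 C libraries (grey circles) and 6 E4 libraries (red triangles), with a line at each mean. Dashed lines set apart the pair of genes that were lower and, at the right, the astrocyte markers. In the 20 genes at the left the E4 points lie above all C points, whereas for Slc1a2, Aqp4 and Fgfr3 the points mix.

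Some genes of general reactivity rose as well. Of 13 genes of the study's pan-reactive list 5 were called higher, against 0.707% of all genes, and 8 did not overlap, against 1.81% (median 3.89, 1.92 at the bound for 4 at 0 in C). Serpina3n was at 19.5, 9.66, 24.0, 12.1 and 6.74 CPM in C and at 279 to 588 CPM at E4 (median 437), a log2 fold change of 4.89 ± 0.55 (adjusted p = 9.9e-10). Gfap was at 25.1, 26.7, 39.3, 27.4 and 29.2 CPM in C and at 182 to 285 CPM at E4 (median 228), a log2 fold change of 2.96 ± 0.37 (adjusted p = 3.2e-08). Lcn2, a secreted iron-siderophore binder, had no count in C and was at 22.7 to 65 CPM at E4 (median 27.7), at least 22.6-fold higher (adjusted p = 0.00066). Vim and Cd44, other genes of the list, had log2 fold changes of 0.87 (adjusted p = 0.57) and 0.57 (adjusted p = 0.92).

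Of the 11 genes that the study lists as typical of astrocytes after lipopolysaccharide, 7 were called higher and 10 did not overlap, against the same shares of all genes. They were H2-T23, H2-D1, Psmb8, Iigp1, Gbp2, Serping1 and Fkbp5, of which the first 5 belong to antigen presentation or the interferon response. Of the 11 genes listed for astrocytes after ischaemia (middle cerebral artery occlusion) 0 were called by the main edgeR fit or DESeq2 and 4 had an unadjusted p under 0.05. With only the 11 libraries fitted, edgeR called 1 of these genes higher. Their median of 2.88 fell to 0.54 at the bound for the 6 at 0 in C. One of them, Ptx3, which encodes a soluble pattern recognition molecule, had 2 counts over the C libraries and 172 at E4, a ratio of 61 (95% counting interval 16.6 to 508), with 0 to 28.5 CPM among E4 libraries (adjusted p = 0.20).

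**Figure D3:**
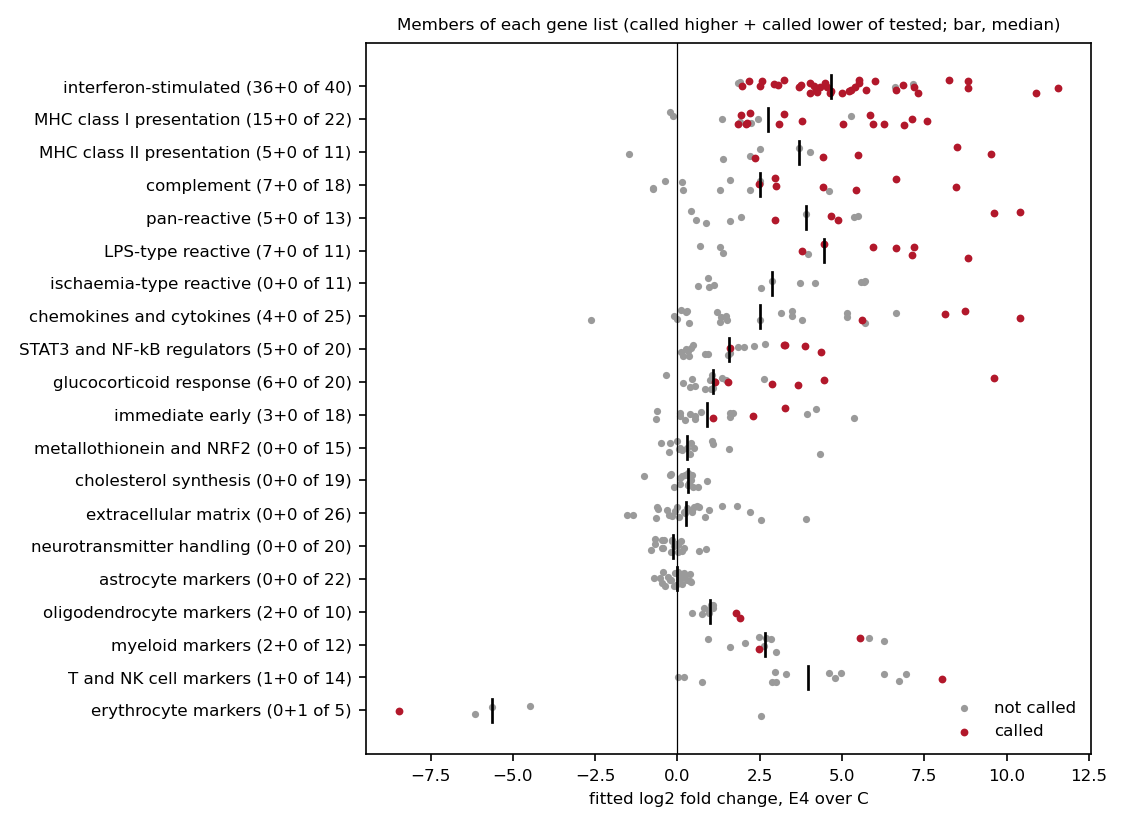
Fitted log2 fold change of E4 over C (horizontal) for the members of each gene list (rows), with called genes in red, others in grey and a black line at the list's median. Brackets give the genes called higher plus lower of those tested. The interferon row has 36 called of 40 and the MHC class I row 15 of 22, while the astrocyte marker row has 0 of 22.

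Among regulators of the STAT3 and NF-kappaB pathways, which relay interleukin-6-family and TNF signals, 5 of 20 were called higher (median 1.56), against 0.707% of all genes. Stat3 was at 149, 133, 166, 117 and 149 CPM in C and at 334 to 493 CPM at E4 (median 448), a log2 fold change of 1.61 ± 0.23 (adjusted p = 8.6e-07). Stat5a lies on the opposite strand beside it. Junb, an AP-1 subunit, went from a mean of 5.27 to 51.4 CPM (3.28 ± 0.52, adjusted p = 1.2e-05), Cebpd, an acute-phase factor, from 6.41 to 59.2 CPM (3.23 ± 0.52, adjusted p = 1.7e-05) and Bcl3, a nuclear NF-kappaB partner, from 0.829 to 19.6 CPM (4.37 ± 0.92, adjusted p = 0.0028). Relb, Nfkb1, Nfkb2 and Rela, the NF-kappaB subunits on the list, had log2 fold changes of 0.25, 0.17, 0.31 and 0.12.

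Of 22 cytokine receptors 2 were called higher, against 0.707% of all genes. Osmr, the oncostatin M receptor, was at 0 to 1.38 CPM in C and at 14 to 22.3 CPM at E4 (4.65 ± 1.18, adjusted p = 0.029), and its call was lost without E4 replicate 6 or without any one of the C libraries. Tnfrsf1a, the TNF receptor of most cells, was at 86.7, 121, 117, 95.2 and 93.3 CPM in C and at 208 to 307 CPM at E4 (median 246). It did not overlap and rose by 1.31 ± 0.28 (adjusted p = 0.0031).

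Genes known to respond to glucocorticoids were called in 6 of 20 (median 1.09), against 0.707% of all genes, and 10 did not overlap, against 1.81%. Fkbp5, a co-chaperone of the glucocorticoid receptor, was at 3.40, 0.920, 1.33, 0 and 1.12 CPM in C and at 11.7 to 61.7 CPM at E4 (median 24.9), a log2 fold change of 4.45 ± 0.91 (adjusted p = 0.0017). Sgk1, a kinase that regulates ion transport, was at 12.7, 7.82, 12.7, 9.70 and 1.69 CPM in C and at 16.0 to 135 CPM at E4 (2.87 ± 0.63, adjusted p = 0.0048), and Plin4, a lipid droplet coat protein, went from a mean of 3.80 to 47.8 CPM (3.65 ± 0.83, adjusted p = 0.0084). Per1, Cdkn1a and Lcn2 were the other called members. Tsc22d3, Klf9 and Dusp1, further targets on the list, were not called, with log2 fold changes of 0.98, 0.17 and 0.53. The metallothioneins Mt1 and Mt2, which bind zinc, did not overlap between the groups but were not called, at 1.08 ± 0.38 and 1.05 ± 0.38 (adjusted p = 0.33 and 0.38).

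Immediate early genes, which respond within minutes to stimuli and to dissociation, were called in 3 of 18, namely Junb, Ier3 and Jun, against 0.707% of all genes. Jun overlapped, at 40.6 to 89.3 CPM in C and 84.6 to 153 CPM at E4 (1.07 ± 0.25, adjusted p = 0.014), and Ier3, an anti-apoptotic early gene, had a log2 fold change of 2.30 ± 0.58 (adjusted p = 0.024). Ier3 lost the call without any one of the C libraries and Jun without C replicate 3 or 5, so that 1 was called without either of these and 2 without C replicate 1, 2 or 4. Of 20 cell cycle genes 2 were called, against 0.707% of all genes, but 0 without C replicate 1 or 4 and 1 without E4 replicate 1 or 6 or C replicate 2, 3 or 5. Top2a, a topoisomerase of dividing cells, overlapped at 0 to 6.44 CPM in C and 5.91 to 47 CPM at E4 (3.49 ± 0.91, adjusted p = 0.036), and Mcm5, a subunit of the replicative helicase, had 3 counts in C and 77 at E4, a ratio of 18.2 (95% counting interval 6.00 to 90.2). Mki67, the common marker of cycling cells, was at 0 in all but 1 C library, which held 4.16 CPM, and at 0.370 to 3.71 CPM at E4 and was not called.

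The lists for the supportive work of astrocytes held no called gene in the main edgeR fit. They covered fasting and lipid oxidation (18 genes), cholesterol synthesis (19), the blood-brain barrier (13), lactate metabolism (15), myelination (7), neurotransmitter signalling (20), extracellular matrix (26), metallothioneins and NRF2 targets (15) and the respiratory chain (22). Unadjusted p-values under 0.05 were found in 0, 2, 2, 2, 0, 1, 5, 4 and 0 of them in that order, and DESeq2 called 1 gene of the matrix list and 1 of the metallothionein list and 0 of the others. Their medians lay between -0.18 for the respiratory chain and 0.31 for cholesterol synthesis. With only the 11 libraries fitted, edgeR called 3 genes of the metallothionein list and 1 of the matrix list higher. Without the filter on low counts it called 1 of each. The 24 ribosomal protein genes were all positive with a median of 0.58. Their sum was 2082 to 3176 CPM in C and 3673 to 5357 CPM at E4. The main edgeR fit and DESeq2 called 0 of them, and 9 had an unadjusted p under 0.05. The edgeR fit of only the 11 libraries called 2 of them higher.

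Of 121 markers of other cell types 5 were called higher, which is 4.13% of them, against 0.707% of all genes. On leaving out single libraries the count was 0 without C replicate 5, 2 without C replicate 3, 3 without C replicate 1, 2 or 4 or E4 replicate 6, and 4 or 5 otherwise. Besides Lyz2, C1qa and Trbc2 they were Mobp and Cldn11, genes of myelin. Mobp was at 61.6 to 214 CPM in C and 182 to 1098 CPM at E4 (1.91 ± 0.45, adjusted p = 0.012), and Cldn11 at 54.3 to 257 CPM in C and 125 to 893 CPM at E4 (1.77 ± 0.42, adjusted p = 0.014). Both overlapped, and both lost the call without E4 replicate 6 or C replicate 2, 3 or 5. The sum of 10 oligodendrocyte markers was 1470 to 5103 CPM in C and 2483 to 11383 CPM at E4, with replicate 6 the highest, and precursor markers summed to 27.7 to 40.5 CPM and 53.2 to 100 CPM with 0 of 6 called, 2 at an unadjusted p under 0.05 and 1 called by DESeq2. The lists for neutrophils, B cells, neurons, endothelium, pericytes and fibroblasts, ependyma, choroid plexus and Bergmann glia held no gene called by the main edgeR fit. DESeq2 called 1 Bergmann glia gene lower and 0 genes of the other lists, and unadjusted p-values under 0.05 were found in 4, 1, 0, 0, 0, 1, 0 and 2 of their genes in that order. With only the 11 libraries fitted, edgeR called 1 neutrophil and 1 B cell gene higher. The part of myelin RNA in the values of other genes was not tested.

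Few genes fell at peak disease. Igfbp4, a secreted binder of insulin-like growth factors, was at 65.4, 100, 40.0, 77.6 and 51.1 CPM in C and at 9.98 to 25.1 CPM at E4 (median 13.6). Every E4 library was below every C library, and the log2 fold change was -2.10 ± 0.42 (adjusted p = 0.0016). Apln, which encodes the peptide apelin, was at 258, 333, 325, 246 and 258 CPM in C and at 102 to 153 CPM at E4 (median 142), a log2 fold change of -1.05 ± 0.27 (adjusted p = 0.035). Trib2, a pseudokinase, was at 416, 492, 407, 483 and 483 CPM in C and at 154 to 345 CPM at E4 (median 215), a log2 fold change of -1.03 ± 0.27 (adjusted p = 0.035). Neither overlapped, but on leaving out single libraries Apln lost the call in 11 of 11 fits and Trib2 in 10 of 11. Hbb-bs, a haemoglobin chain of red blood cells, was at 18.7, 28.5, 19.3, 1.39 and 6.18 CPM in C and at 0 in every E4 library, and Gm12338, an unnamed locus, overlapped between the groups. No overlap with E4 below C was seen for 142 genes, or 0.609% of those tested.

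The response was next set beside those of hindbrain GLASTpos and spinal cord GLASTneg astrocytes at E4, each against its own C libraries. In hindbrain GLASTpos astrocytes 474 genes were called (2.03% of those tested), 388 of them higher (1.66%) and 86 lower (0.369%). Of the 165 genes, 117 were also called higher there, which is 70.9% of the 165 and 30.2% of the 388. The interferon list was called in 35 of 40 (median 4.40) and the MHC class I list in 15 of 22. The difference between the populations, tested as an interaction with libraries unpaired, was called for 2 genes (0.00857%) and for 0 of the 165. An unadjusted p under 0.05 was found for 2091 genes, and DESeq2 called 15. With the number that opens each title as a fixed block, chosen after seeing the data, 106 genes were called, 11 of them among the 165 and 9 of these 11 with the higher response in GLASTneg cells.

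Those 2 genes were Sall3 and Cdh13. Sall3, a transcription factor of neural development, was at 54.8 to 84.3 CPM in C and 47 to 107 CPM at E4 in GLASTneg astrocytes, and at 4.90 to 16.0 CPM in C and 0 to 1.10 CPM at E4 in GLASTpos astrocytes. The difference of log2 fold changes was 4.58 ± 0.88 (adjusted p = 0.0255), from a fall in GLASTpos cells beside levels that overlapped in GLASTneg cells. Cdh13, a cadherin, was at 0 in all E4 GLASTpos libraries and at 15.1 CPM or below in the others of the hindbrain. Both calls were lost on leaving out single libraries.

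In spinal cord the RNA of the sort gene and of astrocyte markers was low at E4. Atp1b2, on whose protein the cells were sorted, was at 5175 to 7706 CPM in C and at 103 to 599 CPM at E4, and the astrocyte markers summed to 34508 to 44777 CPM in C and 7083 to 14730 CPM at E4, while oligodendrocyte markers summed to 14358 to 41875 and 30361 to 77684 CPM. The astrocyte list was called lower in 18 of 22 (median -3.67), against 11.1% of all genes. The interaction with hindbrain GLASTneg astrocytes was called for 1848 genes (7.92%), 1400 with the higher log2 fold change in hindbrain (6.0%) and 448 with the lower (1.92%). All 6 E4 spinal cord libraries showed these low levels, so no value without them can be given. The sort was on surface protein, which RNA levels do not measure. The paper reports lower astrocyte markers in spinal cord during EAE and proposes that reactive astrocytes lose homeostatic genes. The cause of the low levels was not tested here.

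Astrocyte identity genes were among those that differed. Fgfr3 fell in spinal cord from 914 to 1649.9 CPM in C to 14.7 to 83.2 CPM at E4, while its hindbrain GLASTneg levels overlapped, and the difference of log2 fold changes was 5.07 ± 0.42 (adjusted p = 1.2e-14). The same difference was called for 18 of 22 astrocyte markers, among them Btbd17 (4.89), Gja1 (4.55), Slc1a2 (3.61) and Aqp4 (3.45). Gfap differed by 1.86 ± 0.49 (adjusted p = 0.0064), since it rose more in hindbrain. C4b rose less in hindbrain, with a difference of -1.62 (adjusted p = 0.039), and so did B2m, with -1.61 (adjusted p = 0.017). The interferon list was called in 40 of 40 in spinal cord (median 4.91), and of the 165 genes 148 were called higher there (89.7% of the 165 and 9.33% of the 1586 called higher in spinal cord, which were 6.8% of the genes tested). Of the 165, 3 were called lower in spinal cord and 158 had a log2 fold change above 0 there. By the interaction test, 11 of the 165 had a higher log2 fold change than in spinal cord and 8 a lower one.

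**Figure D4:**
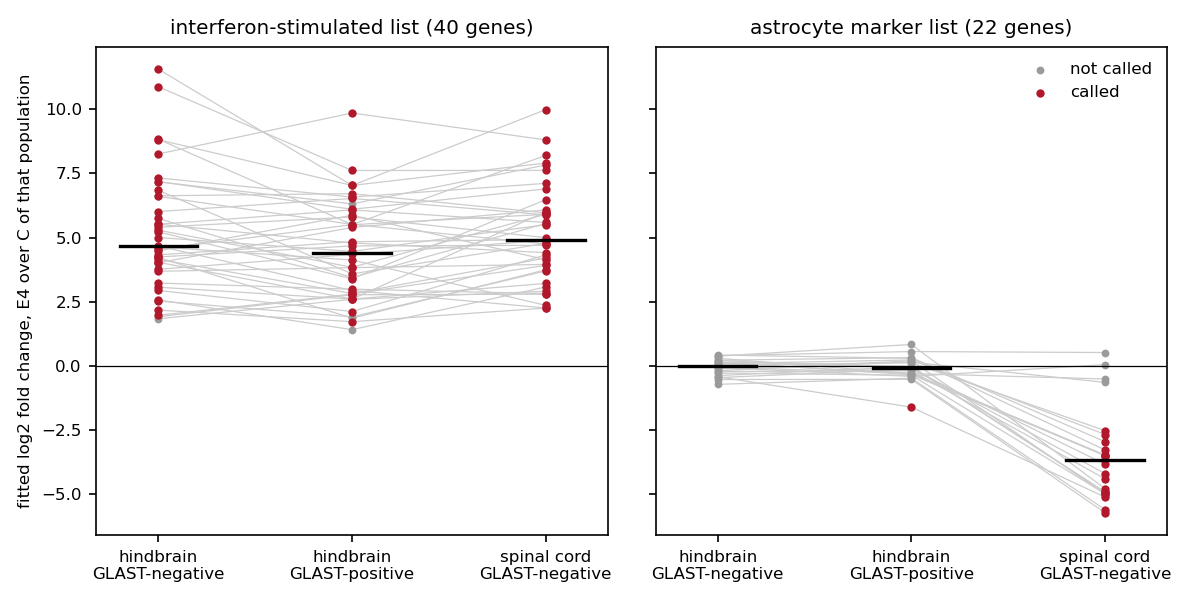
Fitted log2 fold change of E4 over C in each population (horizontal positions) for 40 interferon-stimulated genes (left) and 22 astrocyte markers (right). Each grey line is 1 gene, red points are called, and black bars are medians. The interferon medians are 4.65, 4.40 and 4.91, while the astrocyte median is -0.01 in hindbrain GLASTneg and -3.67 in spinal cord.

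Stages of disease in the same population came last. E1 mice had score 1 and Ech mice were in the chronic stage, with 6 hindbrain GLASTneg libraries each, and the comparisons of E1, E4 and Ech with C share the same 5 C libraries. At E1 150 genes were called (0.643%), 148 higher (0.635%) and 2 lower. At Ech 45 were called (0.193%), 44 higher (0.189%) and 1 lower (0.00429%). The 165 genes had a median log2 fold change of 3.66 at E1, with 125 of them called, and of 2.44 at Ech, with 42 called. The interferon list was called in 37 of 40 at E1 and in 19 of 40 at Ech, and its sum ran from 1616 to 6428 CPM at E1 and from 1229 to 3060 CPM at Ech.

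Between E4 and E1 the main edgeR fit called 0 genes, with 1399 at an unadjusted p under 0.05 and 1 called by DESeq2. Between E4 and Ech 20 genes were called (0.0857%), all higher at E4, all among the 165, and all without overlap between E4 and Ech. Of these, 14 belonged to the interferon or MHC lists. Igtp averaged 597 ± 298 CPM at E1, 1335 ± 261 at E4 and 99.4 ± 82.4 at Ech (SD, n = 6 each) against 13.3 in C, and E4 exceeded Ech by 3.75 ± 0.55 on the log2 scale (adjusted p = 7.2e-05). Tap1 averaged 262, 418 and 59.8 CPM in that order (2.80 ± 0.43, adjusted p = 8.2e-05), and H2-K1 1123, 2866 and 833 CPM (1.78 ± 0.30, adjusted p = 0.00096).

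Cd274 averaged 25.8 ± 13.0 CPM at E1, 52.9 ± 27.7 at E4 and 5.52 ± 5.70 at Ech, with E4 above Ech by 3.24 ± 0.68 (adjusted p = 0.017). C4b was last of the 20, at 497, 736 and 258 CPM (1.51 ± 0.35, adjusted p = 0.0496). Gfap averaged 226 ± 66.2, 229 ± 33.9 and 111 ± 38.3 CPM and Serpina3n 329 ± 154, 426 ± 119 and 124 ± 69.9 CPM, and neither was among the 20. The count of 20 fell to 4 without Ech replicate 2, 4 or 5.

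**Figure D5:**
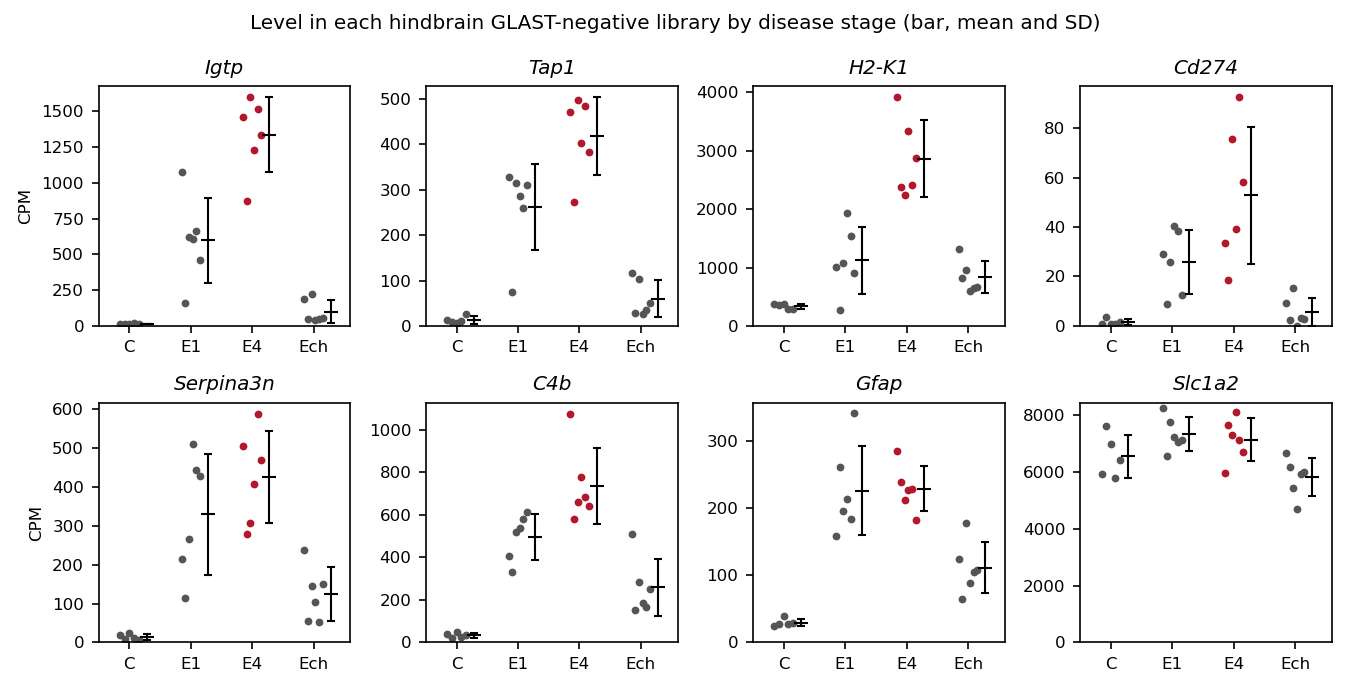
Level in CPM of 8 genes in each hindbrain GLASTneg library at C (n = 5), E1, E4 (red) and Ech (n = 6 each), with the mean and SD beside the points. Igtp, Tap1, H2-K1 and Cd274 were higher at E4 than at Ech, where Igtp averaged 1335 and 99.4 CPM, while the Slc1a2 points of C and E4 overlap.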

How the data were processed

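RNA of sorted astrocytes was sequenced by a 3′ tag method (QuantSeq). The authors aligned reads to GRCm38 with HISAT 0.1.5 and deposited counts per gene from HTSeq 0.6.1p1 in union mode, unnormalized and not pooled, and their strand setting is not given in the sources used here. The 66 libraries of the EAE experiment, in 12 groups, entered one quasi-likelihood fit in R 4.3.3 (edgeR 4.0.16, TMM factors). It was restricted to the 23324 genes whose counts summed to 10 or more. All tests were two-sided with Benjamini-Hochberg adjustment over all tested genes, and SE is the log2 fold change over the root of F. DESeq2 1.42.0, other scalings and filters, a sheet number covariate, the replicate block and leaving out each library were alternatives. A run on simulated data checked the code only, and no result here rests on it. The members and lists were chosen with earlier results of these data known. Genes named were those the study names for EAE, the 10 of largest change per direction without overlap and at 5 CPM or more, up to 4 called members per list (or 2 of highest level where none was called) and 5 per direction of each interaction, and others are said to be chosen later or stand as list members. Gene symbols were available for 48058 of 48526 identifiers. Replicate numbers are shared across populations, but the titles do not tie them to animals, and libraries were not paired by them. Same-numbered E4 and C libraries of the GLASTneg cells correlated between -0.0038 and 0.120 after removal of group means. Pairing across populations was not tested by that check. A number within the titles, whose meaning the labels do not state, also recurs across populations of a stage and entered alternatives as a block (limma voom, edgeR). No column was without a mapped sample. The second table of the series, of astrocyte subtypes, was not used.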

Additional observations from a re-analysis of the deposited data

Results flagged for a closer look

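Among 153 groups of values tested for a sample far from the others, 18 held one, where chance gives about 1 in 20 for groups independent of each other. These groups share the same 11 libraries, and some sums hold genes that were also tested alone. The count of 18 therefore cannot be judged against that rate. Of these, 7 were in E4 replicate 1, 5 in E4 replicate 5, 3 in E4 replicate 2, 2 in C replicate 2 and 1 in C replicate 5.

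E4 replicate 1 lay far above the other E4 libraries for Cd74 (44.66 CPM), H2-Ab1 (98.14 CPM), H2-Eb1 (111.7 CPM), C1qb (83.45 CPM), Bst2 (1904 CPM) and the sum of T and NK cell markers (208 CPM), and below them for Jun (84.62 CPM). The same library had the highest sum of myeloid markers, and without it H2-Eb1 and C1qb were not called. The part of other cells in these values was not tested.

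E4 replicate 5 lay above the others for Lcn2 (65.04 CPM) and for the sums of glucocorticoid-responsive genes (28020 CPM), STAT3 and NF-kappaB regulators (2112 CPM), chemokines and cytokines (1267 CPM) and ependymal markers (43.23 CPM). E4 replicate 2 was below them for Iigp1 (396.1 CPM) and for the sum of the lipopolysaccharide-type list (1206 CPM), and above them for Ier3 (95.63 CPM). In the controls, replicate 2 was apart for Bst2 (19.32 CPM, low) and for the sum of neutrophil markers (8.741 CPM, high), and replicate 5 for Tap1 (26.98 CPM, high).

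The response to E4 was compared between populations by the interaction test. Against hindbrain GLASTpos astrocytes 2 genes were called (0.00857% of those tested), of which Sall3 had a difference of 4.58 on the log2 scale. Both calls were lost on leaving out single libraries.

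Against spinal cord 1848 genes were called. Of the genes the study names and those taken for this difference, the log2 fold change was called higher in hindbrain GLASTneg astrocytes than in spinal cord for Fgfr3 (5.07), Btbd17 (4.89), Nkain4 (4.88), Gja1 (4.55), Mlc1 (4.19), Aldh1l1 (3.70), Slc1a2 (3.61), Aqp4 (3.45) and Gfap (1.86). Among them Gfap alone was called between E4 and C in hindbrain, and for Fgfr3 the changes were 0.14 there and -4.92 in spinal cord. The log2 fold change was called lower in hindbrain than in spinal cord for Hmox1 (-3.39), Snx10 (-3.21), Lbh (-2.41), Pcyox1l (-2.36), Psmc1 (-1.63) and C4b (-1.62). Among those C4b alone was called between E4 and C in hindbrain. These differences rest on E4 spinal cord libraries in which Atp1b2 was at 103 to 599 CPM against 5175 to 7706 CPM in their controls.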

How the results depend on the processing

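The 170 genes called between E4 and C became 232 with DESeq2, 230 without a filter on low counts, 167 with DESeq2's size factors, 170 with edgeR's own filter, 147 with robust dispersion, 165 with the sheet number as covariate and 425 when only the 11 libraries were fitted. Leaving out single libraries gave 118 (without C replicate 5) to 167. The interaction with GLASTpos astrocytes moved from 2 genes to 15 with DESeq2, 10 without the filter and 1 with robust dispersion, and to between 0 and 3 without single libraries, with 0 without C replicate 2, 3 or 5 or E4 replicate 4 or 5 of the GLASTneg cells. The test named E4 effect, hindbrain GLAST-negative minus spinal cord called 1415 genes with the sheet number as covariate and 2082 with DESeq2 in place of 1848, and between 1517 and 1975 without single libraries. Between E4 and E1 the count of 0 became 1 with DESeq2 and 2 without the filter. Between E4 and Ech the 20 genes became 44 with DESeq2, 53 without the filter and 5 with robust dispersion, and 4 to 27 without single libraries, with 4 without Ech replicate 2, 4 or 5, 5 without Ech replicate 6 and 13 without E4 replicate 5 or 6. The cause of these shifts was not tested, except that fewer libraries entered where some were left out. Chosen after seeing the data, limma voom fits gave 160 calls between E4 and C, 4 against GLASTpos astrocytes and 1684 against spinal cord without a block, and 160, 4 and 1723 with the number that opens each title as a random replicate block. As a fixed block in edgeR, which leaves the comparison of E4 with C without an estimate, it gave 106 and 1671 calls. The correlation within that block was 0.0366. Of the 18 pairs of GLASTneg and GLASTpos libraries that shared a title number 4 correlated above 0.1 (median 0.029). Of the 103 pairs that shared none 9 did (median -0.0062). With spinal cord libraries it was 3 of 14 pairs and 13 of 113. Whether a shared title number marks the same animal was not settled by these values. With the replicate number as a block the calls were 180, 2, 1714, 0 and 26 for the comparisons in the order above. The replicate numbers were not shown to pair libraries. Same-numbered E4 and C libraries of the GLASTneg cells correlated at 0.0493 on average against -0.0097 for others. That check held no library of another population, so it cannot tell whether the numbers pair libraries across populations. Of 107 named genes 50 were called, 32 of them under every alternative, and 18 lost the call in at least 1. No direction reversed. Depth limits genes near the floor of 0.856 to 2.00 CPM.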

Other observations

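The genes given here lie outside the lists and were chosen after their values were seen. Slc5a3, the transporter of the osmolyte myo-inositol, averaged 104 ± 24.6 CPM in C and 221 ± 71.3 CPM at E4 (SD, n = 5 and 6), a log2 fold change of 1.08 ± 0.26 (adjusted p = 0.012), and E4 exceeded Ech by 1.25 (adjusted p = 0.0092). Slc38a2, a sodium-coupled transporter of neutral amino acids, went from 76.3 ± 34.3 to 212 ± 62.7 CPM (1.47 ± 0.29, adjusted p = 0.0013). Lrrc8a, the obligatory subunit of the volume-regulated anion channel, went from 201 ± 45.3 to 432 ± 46.0 CPM (1.11 ± 0.25, adjusted p = 0.0078), and Lrrc8c, an accessory subunit, from 18.7 ± 2.33 to 49.8 ± 9.61 CPM (1.41 ± 0.31, adjusted p = 0.0055). By the interaction test, the log2 fold changes of Slc5a3 and Lrrc8a were higher than in spinal cord, by 1.26 (adjusted p = 0.014) and 2.37 (adjusted p = 3.7e-07). Such a difference does not tell a larger rise in hindbrain from a fall in spinal cord. It rests on E4 spinal cord libraries in which Atp1b2 was at 103 to 599 CPM, against 5175 to 7706 CPM in their controls.

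A2m, the protease inhibitor alpha-2-macroglobulin, went from 47.5 ± 6.63 to 150 ± 33.2 CPM (1.66 ± 0.36, adjusted p = 0.004). Its log2 fold change was -0.04 in hindbrain GLASTpos astrocytes, but the difference between the hindbrain populations was not called in the main edgeR fit. In spinal cord it was -1.83, a difference of 3.49 by the interaction test (adjusted p = 4.7e-07). That value rests on the E4 spinal cord libraries with low RNA of astrocyte markers. Il18bp, a decoy for interleukin-18, went from 5.85 ± 4.55 to 45.8 ± 15.6 CPM (2.99 ± 0.73, adjusted p = 0.020). Casp1, the protease that matures interleukin-18, went from 3.53 ± 1.91 to 15.0 ± 6.45 CPM (2.08 ± 0.53, adjusted p = 0.030).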
